A study of Sus scrofa with 9 samples.

Results

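T cell checkpoint and costimulatory receptors were examined in the spleen of Ningxiang pigs, a Chinese indigenous breed, at postnatal days 30, 90 and 210. The set was 10 genes, TIGIT, CTLA4, PDCD1, LAG3, HAVCR2, CD96, BTLA, ICOS, CD28 and CD226, each looked for by the protein description of its locus in the gene table, which carries no symbols. Of these, 7 genes matched 1 locus each among 28095 loci, and all 7 were among the 19264 loci tested, those with a mean of at least 1 FPKM (sequenced fragments scaled to transcript length and to library depth) over the 9 libraries. PDCD1, HAVCR2 and BTLA were matched by no description and are not analysed here. Each age had 3 libraries of whole spleen RNA, none with a treatment, transgene or mutation in the labels, and neither sex nor the animal of a library is labelled. No reference sequence for these loci was held, so none is shown.

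In human and mouse, where these receptors are best known, T cells that meet antigen need a second signal beside the T cell receptor, and CD28 and ICOS give it when they bind B7 family proteins on antigen-presenting cells. CTLA4 takes the same ligands as CD28 and restrains the response, LAG3 binds MHC class II and dampens T cell receptor signalling, and TIGIT, CD96 and CD226 share the poliovirus receptor PVR, with CD226 activating and TIGIT inhibiting. In the spleen the receptors are carried by white pulp T cells, among them activated, regulatory and memory cells and, for CD28, resting cells. NK cells also carry TIGIT, CD96 and CD226.

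Total counts were 48.9 to 62.1 M per library. T cell genes were present in every library: the 8 matched markers of 9 searched (CD3D, CD3E, CD247, CD2, CD4, CD8A, CD8B and TRAT1) summed to 68.4 to 76.9 FPKM at day 30, 72.2 to 103 at day 90 and 96.7 to 125 at day 210, and none was at 0. The libraries also differed between ages in other cells. The 5 of 5 erythroid markers summed to 35.1 to 116 FPKM at day 30, 1.62 to 2.18 at day 90 and 1.97 to 3.04 at day 210, with RHAG at 0 in day 90 replicate 3. The 4 matched of 6 B cell markers summed to 46.1 to 63.7, 82.6 to 95.7 and 44.0 to 49.9 FPKM at days 30, 90 and 210. The 5 matched of 8 NK and cytotoxic markers summed to 18.4 to 31.0, 23.2 to 32.8 and 13.7 to 18.1 FPKM at the same ages, with none at 0. Day 90 replicate 1 and day 210 replicate 2 stood apart in several receptors, and day 210 replicate 3 on the high side in CTLA4 and LAG3. In log2 CPM (counts scaled to library size), day 90 replicate 1 was the highest of its age in 6 of the 7, all but CD96, and day 210 replicate 2 was the lowest of its age in 6 of the 7, again all but CD96. Changes against day 30 that depended most on them are also given without them, and the part that cell composition had in any result was not tested. In whole tissue, fewer cells of a type and less RNA per cell cannot be told apart.

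In FPKM, CD96 was the most abundant of the 7 receptors at every age, and its libraries lay above those of the next gene each time. Mean levels at day 30 were 6.85 ± 0.81 FPKM for CD96 (SD, n = 3 here and below), 3.34 ± 0.64 for ICOS, 3.01 ± 0.34 for CD28, 1.78 ± 0.21 for CD226, 1.05 ± 0.24 for LAG3, 0.959 ± 0.049 for TIGIT and 0.571 ± 0.039 for CTLA4. At that age ICOS overlapped with CD28 and LAG3 with TIGIT, while the other neighbours in this order did not overlap. CTLA4, the lowest, was read from 27 to 31 counts per library. At days 90 and 210 the order below CD96 was not resolved, because each gene overlapped with the next: means ran from 4.79 ± 2.27 (ICOS) to 1.56 ± 0.58 FPKM (CD226) at day 90, and from 5.34 ± 2.62 (ICOS) to 1.91 ± 1.91 FPKM (CTLA4) at day 210.

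**Figure D1:**
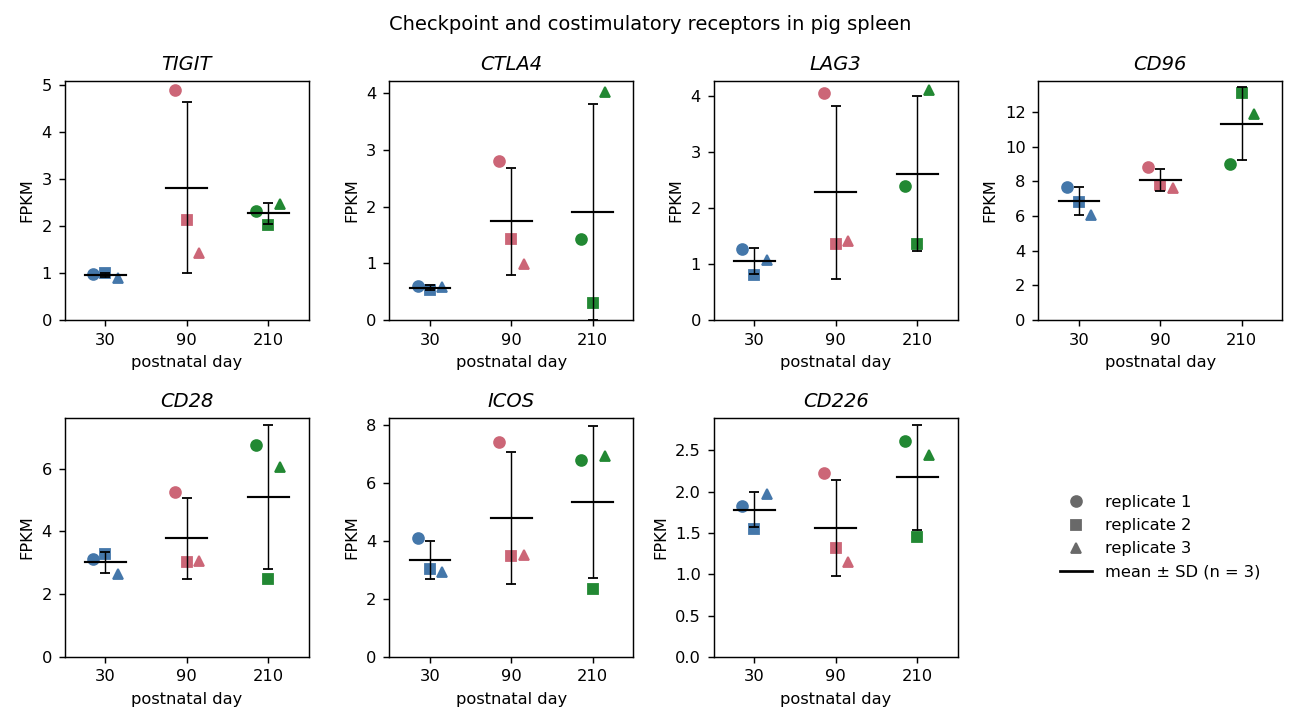
FPKM of the 7 receptors (vertical axes, each from 0) in each library by postnatal day. Symbols are libraries, with the shape giving the replicate number, and bars are mean ± SD of 3 libraries. TIGIT at day 30 sits below all libraries of the later ages, CD96 is highest at day 210, and CTLA4, LAG3, CD28 and ICOS spread widely at days 90 and 210.

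At day 90 against day 30, 6 of 7 receptors had a positive log2 change, with a median of 0.66 beside 0.00 over all loci, and TIGIT alone passed an adjusted p of 0.05 (edgeR quasi-likelihood test, Benjamini-Hochberg over all loci), where 6.08% of all loci did so and 2.06% did so upward. TIGIT, CTLA4 and LAG3 had all 3 libraries of day 90 above all 3 of day 30 in FPKM, as had 3.17% of loci. At day 210 against day 30 all 7 changes were positive (6 when scaled to the CD3 genes, with CD226 negative), with a median of 0.80 beside 0.00 over all loci. TIGIT and CD96 passed the test, beside 6.24% of loci in either direction and 2.55% upward, and TIGIT, LAG3 and CD96 had all libraries of day 210 above those of day 30, as had 8.47% of loci. Between day 210 and day 90, 0 of 7 passed with edgeR, 0 had an unadjusted p under 0.05, and DESeq2 and limma called 0, where edgeR called 0.535% of loci and 14.1% had an unadjusted p under 0.05. The median change was 0.15 there. CD96 alone had all libraries of day 210 above those of day 90 in FPKM, as had 13.3% of loci, but not in CPM. Summed FPKM over all loci, which bears on these shares, was 202419 to 229324 at day 30, 174409 to 219531 at day 90 and 188414 to 219709 at day 210. Against day 30, edgeR gave an unadjusted p under 0.05 for 4 of 7 receptors at day 90, beside 23.1% of loci. At day 210 it did so for 5 of 7, beside 23.7% of loci. The comparisons with day 30 share its 3 libraries. A test for any difference among the 3 ages passed 7.64% of loci and, of the receptors, TIGIT (adjusted p = 0.0273), while CD96 had 0.0681.

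**Figure D2:**
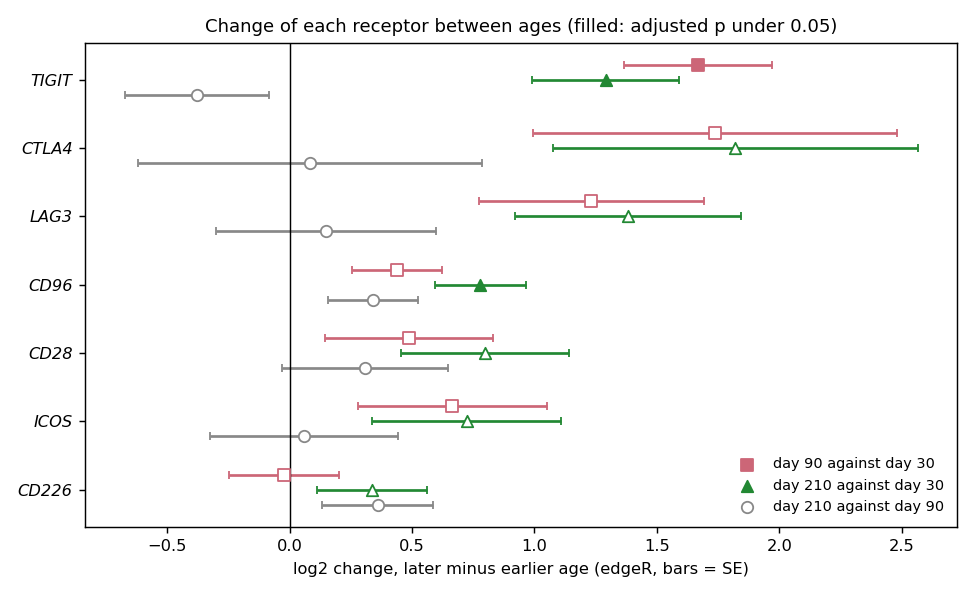
Log2 change of each receptor between ages from the counts (horizontal axis, later minus earlier age, edgeR), with bars of 1 standard error. Filled symbols passed an adjusted p of 0.05: TIGIT at day 90 and at day 210 against day 30, and CD96 at day 210 against day 30. CTLA4 and LAG3 also had changes above 1 against day 30, with wider bars, and the changes of day 210 against day 90 lie between -0.38 and 0.36.

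Among the inhibitory receptors, TIGIT rose at both later ages. Its locus (MSTRG.16763, chromosome 13, 124010449 to 124139853, minus strand) had 0.973, 0.999 and 0.904 FPKM in replicates 1 to 3 of day 30, 4.88, 2.13 and 1.43 FPKM at day 90, then 2.31, 2.02 and 2.48 FPKM at day 210. The day 30 libraries were close together and lay below all later ones, the day 90 libraries were spread over a wide range, and the day 210 libraries lay within that range. The rise was 3.18-fold at day 90 against day 30 (log2 change 1.67 ± 0.30 SE, adjusted p = 0.0172) and 2.45-fold at day 210 against day 30 (1.29 ± 0.30, adjusted p = 0.0391). Day 210 against day 90 had -0.38 ± 0.29 (adjusted p = 0.634), and 0.07 without day 90 replicate 1. Without each library in turn, the change at day 90 against day 30 ran from 1.22 to 1.93 and passed in 7 of 9 fits, with adjusted p of 0.0561 without day 30 replicate 1 and 0.0576 without day 30 replicate 2. The change at day 210 against day 30 ran from 1.17 to 1.37 and passed in 2 of 9, those without day 90 replicate 1 or 3, with adjusted p up to 0.107 without day 30 replicate 2. By limma on log2(FPKM + 1) TIGIT missed the threshold in both comparisons (adjusted p = 0.0531 and 0.129), and with no filter on low loci it missed it at day 210 against day 30 (adjusted p = 0.0528 with edgeR).

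The TIGIT locus is overlapped by 3 loci on the plus strand, and whether counting used strand is not given in the sources used here, so its counts are uncertain to that extent. The most read of these, MSTRG.16764, is described as a non-POU domain-containing octamer-binding protein. It had 2028, 1563 and 1594 counts at day 30, 1532, 1103 and 1088 at day 90, then 1518, 767 and 888 at day 210. TIGIT itself had 293, 299 and 261 counts at day 30, 1479, 685 and 445 at day 90, then 703, 529 and 655 at day 210. The log2 changes of MSTRG.16764 were -0.36 at day 90 against day 30 and -0.60 at day 210 against day 30 (adjusted p = 0.269 and 0.0868), thus of the sign opposite to TIGIT's. A second, without description, ranged from 27 to 965 counts, with 568 counts in day 90 replicate 1, where TIGIT was highest, and 857 and 965 in day 30 replicates 1 and 3, where TIGIT was low. The third, the D(3) dopamine receptor, had at most 24 counts.

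CTLA4, the inhibitory counterpart of CD28, had the largest fitted changes of the 7 in the comparisons with day 30, and the largest errors. Its locus (MSTRG.19147, chromosome 15, 108844526 to 108849486, plus strand) had 0.596, 0.525 and 0.590 FPKM at day 30, 2.80, 1.42 and 0.989 at day 90, then 1.42, 0.293 and 4.01 at day 210. All day 90 libraries lay above day 30, whereas day 210 held both the highest and the lowest library of the series, replicate 3 with 181 counts and replicate 2 with 14. The log2 changes of 1.74 ± 0.74 at day 90 against day 30 (adjusted p = 0.202) and 1.82 ± 0.75 at day 210 against day 30 (adjusted p = 0.181) did not pass. The first passed with only the libraries of days 90 and 30 in the fit (adjusted p = 0.0337). The first was 1.40 without day 90 replicate 1 (adjusted p = 0.446). The second was 0.58 without day 210 replicate 3 and 2.32 without day 210 replicate 2 (adjusted p = 0.553 and 0.0616).

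LAG3, a CD4-related inhibitory receptor (MSTRG.7276, chromosome 5, 61719894 to 61725278, minus strand), had 1.28, 0.807 and 1.07 FPKM at day 30, 4.06, 1.36 and 1.41 at day 90, then 2.39, 1.36 and 4.10 at day 210. Every later library lay above every day 30 library, but 2 of the 3 at day 90 and replicate 2 of day 210 did so by a small margin. The log2 changes of 1.23 ± 0.46 at day 90 against day 30 and 1.38 ± 0.46 at day 210 against day 30 did not pass with edgeR (adjusted p = 0.149 and 0.112), and passed with DESeq2 (adjusted p = 0.0385 and 0.0155). Without day 90 replicate 1 the first was 0.73, with adjusted p = 0.453, and without day 210 replicate 3 the second was 0.82, with adjusted p = 0.245.

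Of the receptors that share PVR with TIGIT, CD96 rose at day 210. CD96, also called tactile (MSTRG.16799, chromosome 13, 126427266 to 126510753, minus strand), had 7.68, 6.81 and 6.06 FPKM at day 30, 8.81, 7.81 and 7.62 at day 90, then 9.03, 13.1 and 11.9 at day 210. In FPKM day 210 lay above day 90, with its lowest library close to the highest of day 90, and days 90 and 30 overlapped. In CPM this order differed. Day 210 replicate 1 (19.0) lay below day 90 replicates 2 and 3 (20.8 and 21.2), and day 90 (18.4 to 21.2) lay above day 30 (12.4 to 16.8). The rise at day 210 against day 30 was 1.72-fold (log2 change 0.78 ± 0.18, adjusted p = 0.0418). Without each library in turn it ran from 0.66 to 0.95 and passed in 1 of 9 fits, that without day 210 replicate 1 (adjusted p = 0.0209), while the largest adjusted p, 0.12, came from leaving out day 210 replicate 2, the highest library. It also missed the threshold with no filter on low loci (adjusted p = 0.0523) and with only the libraries of days 210 and 30 in the fit (adjusted p = 0.101). Day 90 against day 30 had 0.44 ± 0.18 (adjusted p = 0.194) and day 210 against day 90 had 0.34 ± 0.18 (adjusted p = 0.452). The summed NK markers were at their lowest at day 210, where CD96 and, on average, the CD3 genes were highest. GNLY made up most of that sum, and the markers differed. KLRD1 had its lowest mean at day 30 (1.15 FPKM) and GZMB at day 90 (1.21 FPKM). Which cells carried the CD96 change was not tested.

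CD226, the activating receptor for PVR (MSTRG.686, chromosome 1, 106996285 to 107104757, plus strand), had 1.83, 1.55 and 1.97 FPKM at day 30, 2.23, 1.32 and 1.14 at day 90, then 2.62, 1.45 and 2.45 at day 210. The 3 ages overlapped throughout. Its log2 changes were -0.02 ± 0.22 at day 90 against day 30, 0.36 ± 0.23 at day 210 against day 90 and 0.34 ± 0.23 at day 210 against day 30, with adjusted p from 0.4 to 0.968. The first was -0.20 without day 90 replicate 1, and the last was 0.56 without day 210 replicate 2 and 0.18 without day 210 replicate 3, with adjusted p from 0.128 to 0.752. The ratio of TIGIT to CD226 in FPKM, which does not depend on library scaling, was 0.532, 0.645 and 0.459 at day 30, 2.19, 1.62 and 1.25 at day 90, then 0.882, 1.40 and 1.01 at day 210. In FPKM, CD226 thus exceeded TIGIT in all day 30 libraries, and TIGIT exceeded CD226 in all day 90 libraries and in 2 of 3 at day 210. In counts, which are not scaled to transcript length, TIGIT exceeded CD226 only in day 90 replicate 1, with 1479 against 1363. At the later ages, which gene came out higher thus depended on that scaling in several libraries. The ratio was computed after the values of both genes were known and was not tested.

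**Figure D3:**
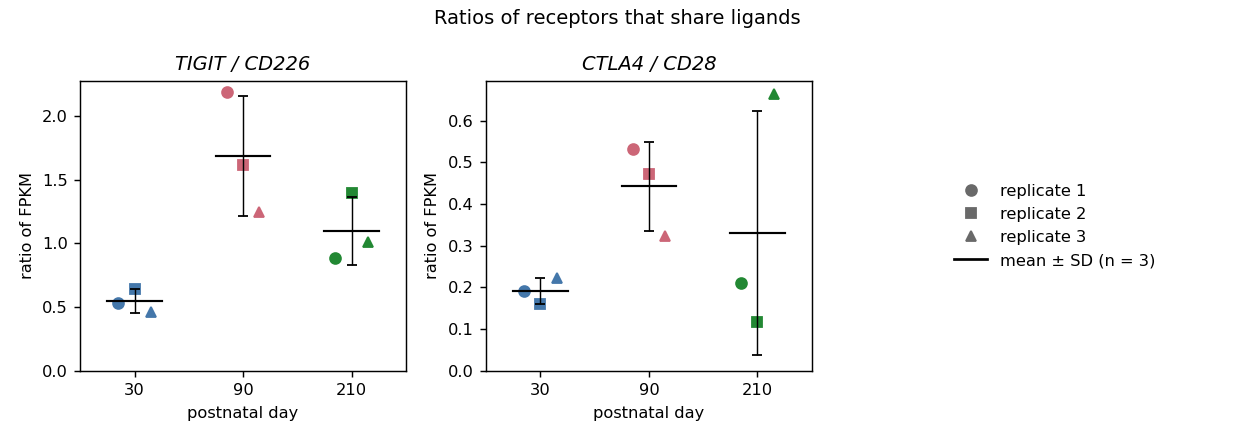
Ratio of FPKM within each library for receptors that share ligands, TIGIT over CD226 and CTLA4 over CD28, by postnatal day. Symbols are libraries and bars are mean ± SD of 3 libraries. TIGIT over CD226 is above the day 30 libraries in every later library, and CTLA4 over CD28 is above them at day 90 and scattered at day 210.

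The costimulatory receptors CD28 and ICOS stand beside CTLA4 on chromosome 15, in the order CD28, CTLA4, ICOS on the plus strand, with 126.8 kb and 61.9 kb between the loci. CD28, the main costimulatory receptor of resting T cells (MSTRG.19146, 108690792 to 108717723), had 3.12, 3.29 and 2.64 FPKM at day 30, 5.26, 3.01 and 3.05 at day 90, then 6.76, 2.48 and 6.04 at day 210. In FPKM, day 90 replicates 2 and 3 were at the level of day 30, and day 210 replicate 2 was below all 3 day 30 libraries. In CPM this differed. Day 90 replicates 2 and 3 (3.12 and 3.29) lay above day 30 (2.08 to 2.87), and day 210 replicate 2 (2.15) lay within the day 30 range. CD28 had log2 changes of 0.49 ± 0.34 (day 90 against day 30), 0.31 ± 0.34 (day 210 against day 90) and 0.80 ± 0.34 (day 210 against day 30), with edgeR (adjusted p = 0.44, 0.749 and 0.198). Without day 210 replicate 2 the last was 1.12, with adjusted p = 0.0469. The ratio of CTLA4 to CD28 was 0.191, 0.160 and 0.224 at day 30, 0.532, 0.472 and 0.324 at day 90, then 0.210, 0.118 and 0.664 at day 210, above day 30 in every day 90 library and on both sides of it at day 210.

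ICOS, the inducible costimulator of activated and follicular helper T cells (MSTRG.19148, 108911361 to 108931193), had 4.08, 3.01 and 2.93 FPKM at day 30, 7.41, 3.46 and 3.50 at day 90, then 6.79, 2.32 and 6.91 at day 210. As with CD28 in FPKM, 1 library of day 90 and 2 of day 210 were high and day 210 replicate 2 was the lowest of the series. The log2 changes were 0.66 ± 0.39 at day 90 against day 30, 0.06 ± 0.38 at day 210 against day 90 and 0.72 ± 0.39 at day 210 against day 30 (adjusted p = 0.346, 0.969 and 0.292). The first was 0.39 without day 90 replicate 1 (adjusted p = 0.707), and the last was 0.42 without day 210 replicate 3 and 1.08 without day 210 replicate 2 (adjusted p = 0.547 and 0.0702).

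The scatter within an age was not alike for all T cell genes. In day 90 replicate 1, LAG3 was 0.77 above the mean log2 CPM of its age, TIGIT 0.73, CTLA4 0.55 and ICOS 0.47, while CD96 was at -0.13. Of the T cell markers in that library, CD8A was at 0.42 and the other 7 ran from -0.17 (CD247) to 0.21 (CD3D). In day 210 replicate 2, CTLA4 was at -1.85, ICOS at -1.04, CD28 at -0.90, LAG3 at -0.79 and CD226 at -0.53, together with the coreceptors CD8B (-1.33), CD8A (-1.25) and CD4 (-0.56). TIGIT (-0.16), CD96 (0.23), CD3D (-0.02), CD3E (0.09), CD247 (-0.13), CD2 (-0.20) and TRAT1 (-0.04) stayed near the mean of the age in that library. With both libraries left out, an alternative chosen after the values were seen, TIGIT had 1.22 at day 90 against day 30 (adjusted p = 0.0519) and CD96 had 0.67 at day 210 against day 30 (adjusted p = 0.161). In that fit 2 receptors passed at day 210 against day 30, TIGIT with 1.37 (adjusted p = 0.0317) and ICOS with 1.08 (adjusted p = 0.0468). Of all 19264 loci, 271 passed there, 94 of them upward. What sets these 2 libraries apart was not tested. Day 210 replicate 3, which stayed in that fit, deviated upward, with CTLA4 at 1.75, LAG3 at 0.87, ICOS at 0.62 and CD8B at 0.87. Which library of day 210 is atypical was not tested.

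**Figure D4:**
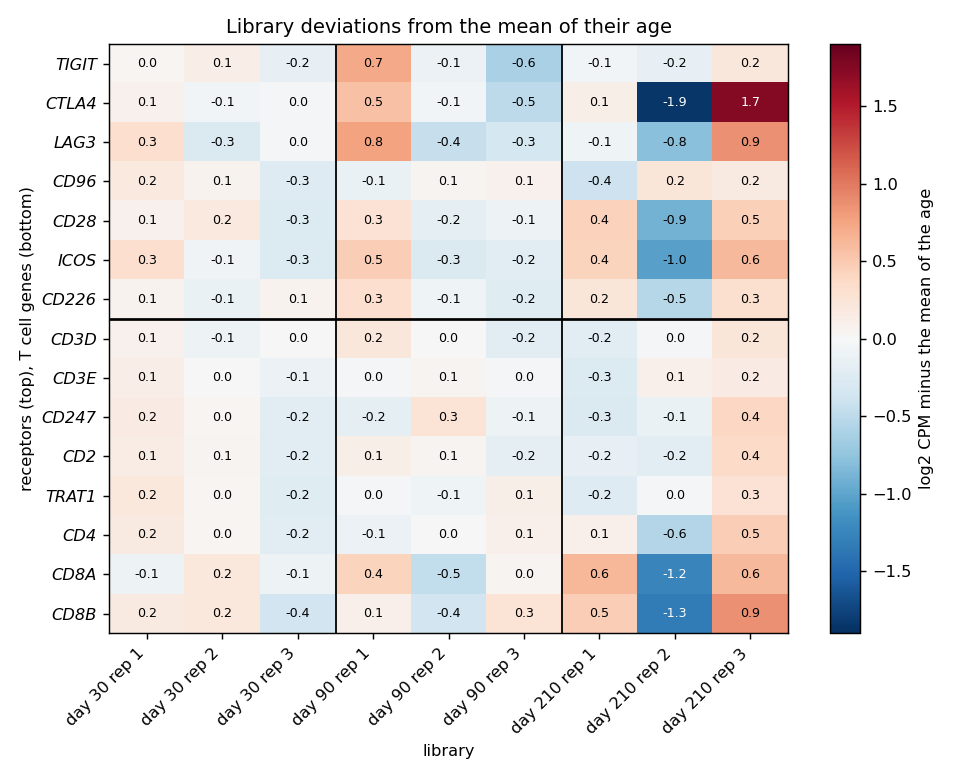
Deviation of each library (columns) from the mean of its age in log2 CPM for the 7 receptors (above the thick line) and 8 T cell genes (below it), with red above and blue below the mean. Day 90 replicate 1 is high for TIGIT, CTLA4, LAG3 and ICOS, and day 210 replicate 2 is low for CTLA4, LAG3, CD28, ICOS, CD226, CD8A, CD8B and CD4 but not for CD96, CD3D or CD3E.

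The receptors were also set against the CD3 chains of the T cell receptor, of which 2 of 3 differed between ages. CD3D rose by 0.72 ± 0.15 and CD3E by 0.76 ± 0.13 at day 210 against day 30 (adjusted p = 0.0247 and 0.0143, with 0.0944 and 0.0547 without day 30 replicate 2), and CD247 had 0.39 ± 0.20 (adjusted p = 0.268). None of the 3 passed at day 90 against day 30 or at day 210 against day 90 (edgeR, adjusted p from 0.085 to 0.791), though CD3D at day 90 against day 30 and CD3E at day 210 against day 90 had an unadjusted p under 0.05. CD3D, CD3E and CD247 together made up 190, 172 and 164 CPM at day 30, 223, 230 and 199 at day 90, then 229, 269 and 323 at day 210. Per 1000 counts of these 3 genes, TIGIT had 25.8, 30.2 and 26.0 counts at day 30, 105, 56.9 and 46.2 at day 90, then 49.0, 38.8 and 42.0 at day 210, so all later libraries remained above day 30. CD96 had 84.3 ± 7.89, 93.1 ± 12.3 and 93.1 ± 13.8 counts per 1000 at days 30, 90 and 210, with the ages overlapping.

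Scaling to the CD3 genes moved the median log2 change of all loci to -0.31 at day 90 against day 30, -0.31 at day 210 against day 90 and -0.61 at day 210 against day 30. On that scale TIGIT rose by 1.34 ± 0.28 at day 90 against day 30 (adjusted p = 0.0198), where 9.74% of loci passed and 0.379% did so upward. It passed in 4 of 9 fits without 1 library, with adjusted p up to 0.074 without day 90 replicate 1. At day 210 against day 30 TIGIT had 0.66 ± 0.28 (adjusted p = 0.07, and 0.026 without day 90 replicate 1) and CD96 0.14 ± 0.18 (adjusted p = 0.491), and 0 of 7 receptors passed with edgeR while 49.8% of loci did, 49.2% downward, and TIGIT alone had an unadjusted p under 0.05, as had 59.4% of loci. Without day 210 replicate 2, CTLA4 passed there with 1.59 (adjusted p = 0.0301). Day 210 against day 90 passed 0 of 7 receptors, beside 0.41% of loci, with an unadjusted p under 0.05 for TIGIT alone (-0.68 ± 0.28) and for 21.7% of loci. The sign of CD226 turned on this scale, to -0.28 ± 0.24 at day 210 against day 30, as did those of CTLA4, LAG3 and ICOS at day 210 against day 90.

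The ligands moved in no common direction. Of 16 searched, 11 were matched and 10 tested. At day 90 against day 30, 1 rose and 2 fell, with a median log2 change of -0.02, and 4.02% of all loci fell. At day 210 against day 30, 1 rose and 2 fell, with a median of 0.10, and 3.7% of all loci fell. Between days 210 and 90 edgeR called 0 of the 10, beside 0.535% of all loci, and 3 had an unadjusted p under 0.05, beside 14.1%. Against day 30, 5 of the 10 had an unadjusted p under 0.05 at day 90 and 3 at day 210, beside 23.1% and 23.7% of all loci. PVR, the shared ligand of TIGIT, CD96 and CD226, had 2.38, 3.01 and 3.96 FPKM at day 30, 1.87, 1.65 and 1.36 at day 90, then 3.99, 3.68 and 2.65 at day 210. It was lowest in all 3 libraries of day 90, and its relation to the levels of the receptors was not tested. The fall at day 90 against day 30 was by 0.73 ± 0.18 (adjusted p = 0.0463, which became 0.154 without day 90 replicate 1). The 6 matched of 8 macrophage and dendritic cell markers summed to 249 to 335 FPKM at day 30, 185 to 216 at day 90 and 263 to 366 at day 210. This sum was also lowest at day 90, but not every marker was. XCR1 and FLT3 had means of 8.29 and 2.29 FPKM at day 90 and lower ones, 6.88 and 1.61, at day 210. The part of these cells in the values of PVR was not tested. NECTIN3, a nectin bound by TIGIT in human, had -0.35 ± 0.19 in that comparison (adjusted p = 0.322).

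CD80, a ligand of CD28 and CTLA4, had 4.40, 5.69 and 5.81 FPKM at day 30, 5.67, 4.45 and 3.88 at day 90, then 7.20, 7.47 and 7.46 at day 210, with day 210 above both other ages. It rose by 0.53 ± 0.13 at day 210 against day 30 (adjusted p = 0.0454), a call that held in 0 of 9 fits without 1 library. PDCD1LG2, a ligand of PD-1, rose by 0.62 ± 0.14 at day 90 against day 30 (adjusted p = 0.0322, and 0.116 without day 30 replicate 2), and CD274, the other PD-1 ligand, had 0.96 ± 0.26 (adjusted p = 0.0638). CD276, a B7 family member, fell by 0.74 ± 0.17 at day 90 and by 0.72 ± 0.17 at day 210, both against day 30 (adjusted p = 0.0345 and 0.0368), and these became 0.128 without day 90 replicate 1 and 0.116 without day 30 replicate 1. LGALS9, the galectin that binds TIM-3 in human, fell by 1.56 ± 0.38 at day 210 against day 30 (adjusted p = 0.0439, and 0.133 without day 30 replicate 2). Its day 30 libraries had 73.6, 58.9 and 23.3 FPKM and all later ones 16.4 to 19.6. ICOSLG, the ligand of ICOS, kept within 0.16 of 0 in each comparison, with adjusted p from 0.492 to 0.9.

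**Figure D5:**
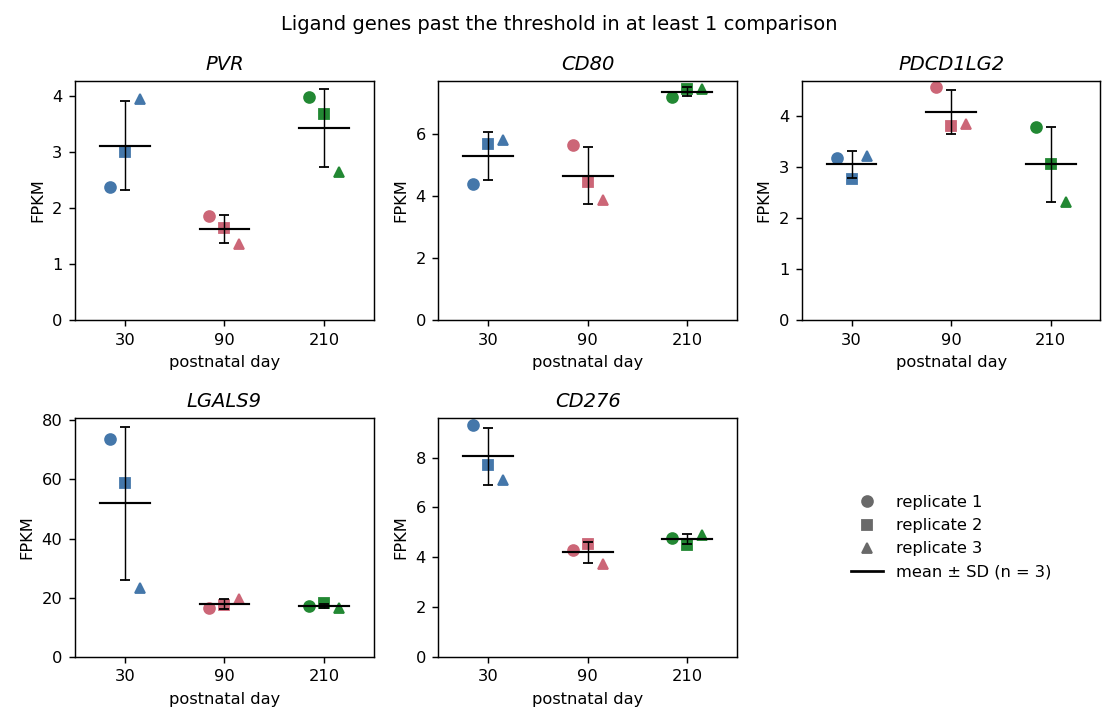
FPKM of the 5 ligand genes that passed the test in at least 1 comparison, in each library by postnatal day. Symbols are libraries and bars are mean ± SD of 3 libraries. PVR is lowest at day 90, CD80 is highest at day 210, PDCD1LG2 is highest at day 90, and LGALS9 and CD276 are highest at day 30.

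Signalling genes downstream of the receptors (13 matched and tested of 18) had medians of 0.20 at day 90 against day 30, 0.15 at day 210 against day 90 and 0.28 at day 210 against day 30. In these comparisons edgeR called 0, 0 and 1 of the 13, beside 6.08%, 0.535% and 6.24% of all loci. An unadjusted p under 0.05 was found for 2, 4 and 4, beside 23.1%, 14.1% and 23.7% of all loci. GRAP2, an adaptor that joins LAT to SLP-76, was the 1 that rose, by 0.58 ± 0.14 at day 210 against day 30 (adjusted p = 0.0427), and this held in 0 of 9 fits without 1 library. ZAP70, the kinase recruited to the CD3 chains, had 0.80 ± 0.24 there (adjusted p = 0.0801), and PIK3R1, a regulatory subunit of the kinase that CD28 and ICOS engage, 0.77 ± 0.21 (adjusted p = 0.0688).

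Other coreceptors (17 matched of 19, with 16 loci tested, CD2 among them as among the T cell markers) had medians of 0.28, 0.10 and 0.41 in the same order of comparisons. With edgeR 1, 0 and 3 of the 16 rose and 0 fell, where 2.06% of all loci rose at day 90 and 2.55% at day 210 against day 30. Of the 16, 5, 4 and 8 had an unadjusted p under 0.05, beside the same 23.1%, 14.1% and 23.7% of all loci. SLAMF6, a self-binding receptor of T and NK cells, rose by 0.66 ± 0.16 both at day 90 and at day 210 against day 30 (adjusted p = 0.0429 and 0.0424, which became 0.136 without day 90 replicate 1 and 0.133 without day 30 replicate 1). CD244, a SLAM family receptor of NK and CD8 T cells, rose by 0.78 ± 0.17 at day 210 against day 30 (adjusted p = 0.033, and 0.113 without day 30 replicate 2). CD200R1, an inhibitory receptor of myeloid and T cells, rose by 0.93 ± 0.19 there (adjusted p = 0.0252, and 0.0758 without day 30 replicate 1).

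Regulators of regulatory and exhausted T cells (15 matched of 19, with 11 loci tested) had medians of 0.24, 0.01 and 0.27, and 2, 0 and 1 of the 11 rose while 0 fell with edgeR, again beside 2.06% and 2.55% of all loci that rose against day 30. An unadjusted p under 0.05 was found for 3, 3 and 4 of them, beside 23.1%, 14.1% and 23.7% of all loci. PRDM1, which encodes BLIMP-1, a regulator of plasma cells and of effector T cells, rose by 1.04 ± 0.12 at day 210 against day 30 (adjusted p = 0.00408), and this held in 9 of 9 fits without 1 library. At day 90 against day 30 its change was 0.63 ± 0.12 (adjusted p = 0.0188), with up to 0.0676 when day 90 replicate 3 was left out. IKZF2, which encodes Helios of regulatory T cells, rose by 0.93 ± 0.20 at day 90 against day 30 (adjusted p = 0.0295, and 0.11 without day 30 replicate 2). At day 210 IKZF2 had 0.14 ± 0.20 against day 30 and -0.78 ± 0.20 against day 90 (adjusted p = 0.703 and 0.126). Which cells carried the IKZF2 change was not tested. FOXP3, the defining factor of regulatory T cells, was below the level tested, with 0.666 ± 0.261 FPKM at day 30, 0.300 ± 0.069 at day 90 and 0.334 ± 0.239 at day 210. Its day 90 libraries lay below those of day 30 in FPKM only by a narrow margin. Replicate 2 had 0.362 FPKM at day 90 and 0.367 at day 30, from 47 and 45 counts, and no difference was tested.

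The loci whose profile over the 9 libraries was most like that of TIGIT, by the mean absolute difference of centred log2 CPM among 9947 loci with 1 informative description, were those described as transcription termination factor 1 (0.25), leukocyte immunoglobulin-like receptor subfamily B member 3 (0.31), myb-related protein A (0.31) and kinesin-like protein KIFC2 (0.32). The termination factor description is shared by 2 loci and the receptor description by 3, so these identities are uncertain.

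Of 18908 circular RNAs, which are known by reads across a back-splice junction, 8 were assigned to these receptor loci. CD96 hosted 6 of them with 70 junction reads in all, or 7.03 per 1000 counts of the locus, CD226 hosted 1 with 8 reads (0.817 per 1000) and TIGIT 1 with 1 read (0.187 per 1000). The most read, of 2 exons of CD96 (chromosome 13, 126482865 to 126487067), had 6, 7 and 0 reads at day 30, 4, 8 and 7 at day 90, then 4, 1 and 5 at day 210. It was seen in 8 of 9 libraries, and the ages overlapped while the linear counts of CD96 were highest at day 210.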

How the data were processed

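RNA of 9 spleen libraries, 3 per age, was sequenced from both ends, per the labels' protocols. The authors' deposited gene table holds raw read counts and FPKM per locus, per the file headers, and their circRNA table holds junction read counts and 9 columns of scaled values not used here. HISAT2 2.0, StringTie 1.3.0 and Bowtie 0.12.2 are named in the submitters' processing notes, as is the build mm8, a mouse build. Coordinates are printed as the table gives them, on chromosomes of a pig assembly whose name is not given in the sources used here, nor are counting tool and strand. The protocols name both poly(A) selection and a poly(A)-minus fraction, and adipose tissue.

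Descriptions were matched to symbols by a list of names. Loci with several descriptions were left out, which removed CD3G, so the CD3 sum used 3 genes. Members and gene lists were chosen with earlier results of these data known. The 19264 loci that averaged 1 FPKM or more were fitted on their counts with edgeR 4.0.16 in R 4.3.3 (TMM factors 0.937 to 1.073, quasi-likelihood, a mean per age, two-sided), and p-values were adjusted by Benjamini-Hochberg over all of them, with a threshold of 0.05. The SE is the log2 change over the square root of F. In the fit relative to CD3 genes, library sizes were the summed counts of CD3D, CD3E and CD247. The common biological coefficient of variation was 27.3%. CPM in logs had a prior count of 2. The fitting scripts were tested on simulated data. Alternatives were DESeq2 1.42.0, limma 3.58.1 on log2(FPKM + 1), other filters and size factors, only the ages compared, a replicate block, each library left out, CD3E alone, and 2 libraries left out together. Of the companion lists, the text names loci past the threshold and others with the smallest p.

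The labels give replicate numbers but do not say that libraries come from separate animals, so p-values measure the spread between these samples, which may be technical. Replicates differed beyond sampling noise (chi-square of counts with a median of 5.27 to 16.7 per locus), and each was counted once. Whether replicate numbers pair libraries was checked by correlating deviations from the age means: same-numbered pairs had r from -0.07 to 0.10 (9 pairs) and others from -0.12 to 0.12 (18 pairs), so no block was used.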

Additional observations from a re-analysis of the deposited data

How the results depend on the processing

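DESeq2 size factors in edgeR changed no receptor's call, with 1192 loci called at day 90 against 30, 108 at day 210 against 90 and 1194 at day 210 against 30. edgeR's own filter changed no receptor's call. DESeq2 called 2424, 801, 2300 and 3324 loci (day 90 against 30, 210 against 90, 210 against 30, any age), against 1171, 103, 1203 and 1471 with edgeR, with 2 receptors at day 90 against 30 and 3 for any age. With no filter 66 loci passed at day 210 against 90. At day 210 against 30, 0 receptors passed there, with adjusted p of 0.0528 (TIGIT) and 0.0523 (CD96) by edgeR, while 1024 of 28095 loci did. With limma on log2(FPKM + 1), which moved the median of all loci by -0.15 at day 90 against 30 and by 0.11 at day 210 against 90, 0 receptors passed at day 90 against 30 (TIGIT adjusted p = 0.0531), 1 at day 210 against 30 (CD96, with TIGIT at adjusted p = 0.129) and 0 for any age. Of all 19264 loci, limma passed 1720 at day 90 against 30 and 926 at day 210 against 30. CTLA4 at day 210 against 90 was -0.0748 there. Its share of calls that were higher was 7.38%, 88.5% and 22.9% in the 3 pairs of ages, against 33.8%, 65.0% and 40.8% with edgeR. With only the 2 ages compared, 2 receptors passed at day 90 against 30, where 1490 of 19264 loci passed. In the same setting 1 receptor passed at day 210 against 30 (CD96 adjusted p = 0.101), where 499 loci passed.

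The replicate block, although the numbers showed no pairing, left 582, 43, 531 and 651 loci, 0 receptors at day 210 against 30 (TIGIT adjusted p = 0.0653, CD96 0.0866) and 0 for any age. At day 210 against 90 it gave CTLA4 -0.286 and, relative to the CD3 genes, CD96 -0.00567 and CD28 -0.0543, and ICOS -0.0189 at day 210 against 30. With CD3E alone in place of the CD3 genes, CD96, CD28 and CD226 at day 210 against 90 were -0.164, -0.143 and -0.104.

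Without 1 library, or without day 90 replicate 1 and day 210 replicate 2 together (chosen after seeing the data), 152 to 1556, 7 to 139, 271 to 1053 and 240 to 1671 loci passed. Receptors passing numbered 0 to 1 at day 90 against 30, 0 to 2 at day 210 against 30 and 0 to 2 for any age, and relative to the CD3 genes 0 to 1 in each of these. Log2 changes that turned sign were those of CD226 at day 90 against 30 (-0.195 to 0.0843) and, at day 210 against 90, TIGIT (-0.637 to 0.15), CTLA4 (-1.15 to 0.921), LAG3 (-0.405 to 0.961) and ICOS (-0.239 to 0.692). Relative to the CD3 genes they were, at day 210 against 90, CTLA4 (-1.26 to 0.173), LAG3 (-0.556 to 0.255), CD96 (-0.127 to 0.108), ICOS (-0.588 to 0.102), CD28 (-0.374 to 0.334) and CD226 (-0.207 to 0.277), and at day 210 against 30 ICOS (-0.224 to 0.466) and CD28 (-0.193 to 0.515). None of the changes that turned sign had passed the test, and the causes were not tested.

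The limits are 3 libraries per age, low counts of CTLA4 (14 to 181 per library), the overlap of the TIGIT locus with plus-strand loci, and calls near the threshold: every call of TIGIT and CD96 was lost without at least 1 library.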
